A study of Mus musculus with 19 samples.

Results

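Input RNA and ribosome footprints of 10 mouse genes for translation elongation, termination and ribosome rescue factors were compared between Mettl5 KO cells and scrambled control (SCR) cells. The genes were Eef1a1, Eef1b2, Eef1d, Eef1g, Eef2 and Eif5a for elongation, Etf1 and Gspt1 for termination, and Abce1 and Hbs1l for recycling and rescue. They were chosen by name, with earlier results of these data known. Each matched 1 row by symbol, and they are 10 of the 55359 genes in the deposited tables. Footprints were counted in 2 KO and 2 SCR libraries, and input RNA in 2 KO and 2 SCR libraries, which makes 8 of the 19 samples of the series. All libraries came from cultured B16-F10 cells, a melanoma line of C57BL/6 mice. Cycloheximide, used to hold ribosomes in place, is listed for the footprint libraries of both genotypes and not for the input RNA libraries. No other treatment is given for either genotype. METTL5 methylates the RNA of the small ribosomal subunit. The labels give neither the edited sequence nor the number of KO clones. Nothing in them says whether replicates are separate cultures, so p-values measure only the spread between these libraries, which may be technical. The comparison asks which messages of the translation machinery are present and translated at other levels once METTL5 is lost.

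In elongation, the GTPase eEF1A (Eef1a1) brings each aminoacyl-tRNA to the ribosome, and the eEF1B complex recharges it with GTP. Eef1b2 and Eef1d encode the exchange subunits of eEF1B, and Eef1g encodes the subunit that holds the complex together. The GTPase eEF2 then moves the ribosome along by a codon, and eIF5A, which carries the modified lysine hypusine, helps the ribosome past slow sequences and at stop codons. At a stop codon eRF1 (Etf1) reads the codon and releases the protein together with the GTPase eRF3 (Gspt1), and the ATPase ABCE1 splits the ribosome into its subunits. HBS1L is a GTPase related to eRF3 and acts with Pelota on ribosomes that have stalled without a usable stop codon. Messages of mammalian elongation factors are known for a terminal oligopyrimidine (TOP) start, a C followed by a run of pyrimidines at the cap, through which mTORC1 controls their translation.

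The annotated transcription starts are shown because a TOP start would set members apart from other messages. RefSeq (GRCm38.p6) gave a start for 7 of the 10 genes, with no entry used here for Eef1d, Eef1g and Etf1. The windows run from 5 bases before the annotated start to 25 bases after it, 5′ to 3′ on the strand of the gene. Capitals mark a C followed by at least 4 pyrimidines, searched as letters on the strand of the gene only. Among the windows of all 7 genes, only those of Eef1a1, Eef2 and Abce1 hold such a run, and Hbs1l is shown as an example of the rest. The runs begin at position -5 (Eef1a1), 16 (Eef2) and 11 (Abce1), where 1 is the annotated start. Eef1a1 is at chr9:78481700-78481729 on the minus strand, Eef2 at chr10:81176626-81176655 on the plus strand, Abce1 at chr8:79711716-79711745 on the minus strand and Hbs1l at chr10:21295974-21296003 on the plus strand.
Eef1a1: CCCTCTTCCCgagggtgggggagaacggta
Eef2: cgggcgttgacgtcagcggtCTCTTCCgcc
Abce1: tcaccaacgtcatcaCTCCCTCCagggcgc
Hbs1l: agtgcgcaggtatgacgtcgcgcatgcgcg

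These 7 genes have 12 annotated promoters, and none of the 12 had such a run exactly at the start, where 2.51% of all 32851 promoters had one. Within 10 bases of the start, 1 of the 12 (Eef1a1) had one, against 29.7% of all promoters. A wider window, from 10 bases before to 50 bases after the start, was chosen after the values were seen. In it 7 of the 12 had one, on 6 of the 7 genes (all but Hbs1l), against 58.1% of all promoters. Several of the 12 promoters belong to Eif5a alone, and each other gene has 1, so the share of promoters leans on Eif5a. No share of all genes was computed, so the count of genes has no background. These letters describe the annotated start, which need not be the start used in these cells.

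The input RNA libraries held 48692578 and 43601773 gene counts in KO cells and 38968000 and 43083013 in SCR cells. The footprint libraries were shallower in KO cells, with 14555963 and 21366608 counts, than in SCR cells, with 28059683 and 31301806. Mettl5 itself had 6.46 and 6.21 CPM (counts scaled to a common library size, for Mettl5 by TMM, described below) of input RNA in KO cells. In SCR cells it had 9.23 and 9.41 CPM. The log2 fold change of Mettl5 was -0.56 (SE 0.13, edgeR's quasi-likelihood test, adjusted p = 0.0284). Its footprints were 11.1 and 11.6 CPM in KO cells and 15.1 and 13.8 CPM in SCR cells, which did not pass (-0.35, SE 0.09, adjusted p = 0.112). Marker levels are given as CPM over library totals. The 7 melanocyte markers (Tyr, Tyrp1, Dct, Pmel, Mlana, Mitf and Sox10) were at 268 to 4751 CPM of input RNA per library. In input RNA Dct (0.43) and Mlana (0.59) rose in KO cells, and Tyr (-0.25) and Mitf (-0.22) fell, at an edgeR adjusted p below 0.05. Of all genes 9.56% rose and 7.21% fell there. In translational efficiency, described below, Pmel (-0.81) and Mlana (-0.75) fell, as did 3.4% of all genes. Among 6 markers of other cells, Ptprc, Cd3e, Epcam and Krt14 were at 0 counts in every input RNA library. The 6 summed to 1.27 to 2.09 CPM of input RNA in KO libraries and 2.08 to 2.76 CPM in SCR libraries, and to 4.21 to 4.53 CPM of footprints in KO libraries and 6.93 to 7.48 CPM in SCR libraries, mostly Cd68. The part of these differences in the results was not tested.

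In input RNA, 6 of the 10 genes rose in KO cells and none fell. The 6 were Eef1a1 and the 3 eEF1B subunit genes Eef1b2, Eef1d and Eef1g, together with Etf1 and Hbs1l. Of all 20025 genes tested, 16.8% passed, with 9.56% that rose and 7.21% that fell (edgeR's quasi-likelihood test with Benjamini-Hochberg adjustment over all genes, adjusted p below 0.05). The median log2 fold change (KO minus SCR) of the 10 genes was 0.23, against -0.01 over all genes tested. Both KO libraries were above both SCR libraries for 9 of the 10 genes, a pattern shown by 31% of all genes, and only Abce1 overlapped. Counts were scaled by TMM, which sets each library against the others by the bulk of its genes, and levels below are TMM-scaled CPM. In bulk libraries a change in RNA per cell and a change in the share of cells that express a gene cannot be told apart. The calls leaned on both SCR libraries. Without SCR input RNA replicate 1 or without SCR input RNA replicate 2, 2 of the 10 genes rose instead of 6, and in each of those fits Eef1a1, Eef1g, Etf1 and Hbs1l missed the threshold while their fold changes stayed between 0.15 and 0.34. The number of all genes called also dropped there, to 1031 and 1417, against 3358 with all libraries.

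**Figure D1:**
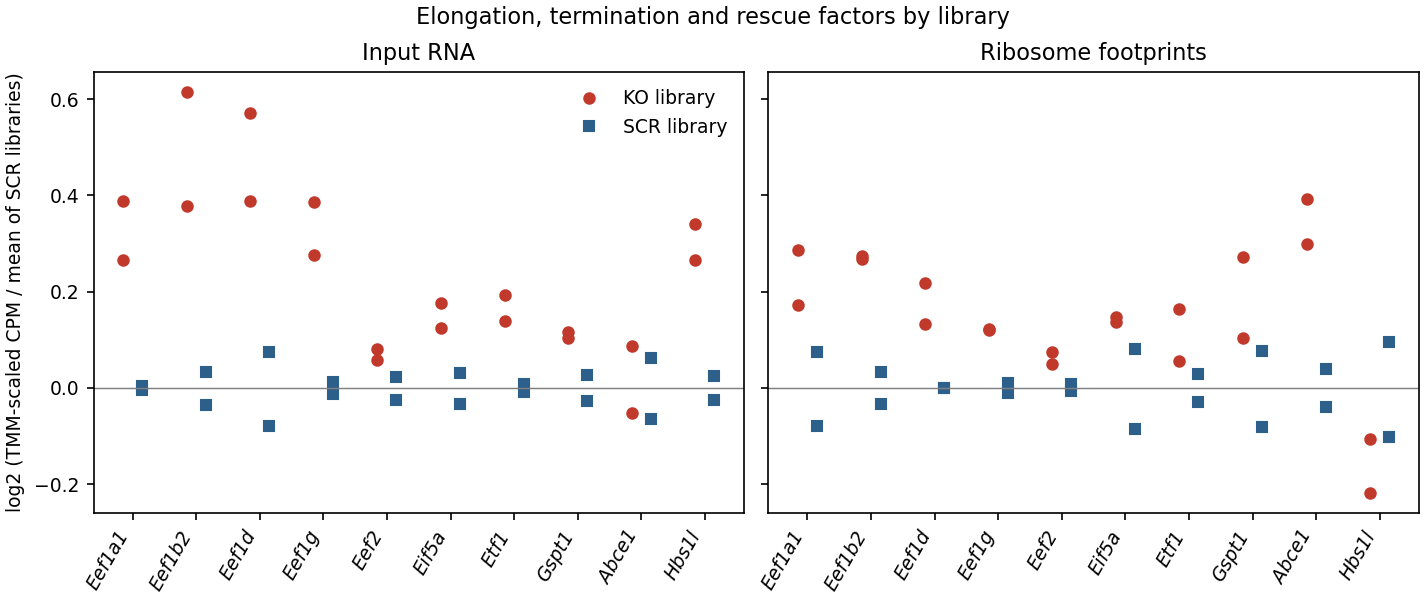
TMM-scaled CPM of each library divided by the mean of the SCR libraries, as log2, for the 10 genes (left panel input RNA, right panel ribosome footprints; circles, 2 KO libraries; squares, 2 SCR libraries). In input RNA the KO circles of Eef1b2 and Eef1d stand highest and those of Abce1 overlap the SCR squares, while in footprints Hbs1l is the 1 gene with both KO circles below both SCR squares.

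Among the elongation genes, the message for the tRNA carrier and all eEF1B messages were higher. Eef1a1 was by far the most counted of the 10 genes, with 8191 and 7527 CPM of input RNA in KO cells and 6239 and 6276 CPM in SCR cells. It rose by a log2 fold change of 0.33 (SE 0.05, edgeR adjusted p = 0.00915), and the groups were well apart. Its reading frame in the deposited list, of 462 codons, lies at chr9:78386019-78387936 on the minus strand (GRCm39).

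Eef1b2 had 258 and 219 CPM in KO cells and 165 and 173 CPM in SCR cells, the widest change among the 10 genes (0.50, SE 0.08, edgeR adjusted p = 0.00941). The KO libraries differed from each other more than the SCR libraries did. Eef1d, the other exchange subunit, had 185 and 163 CPM in KO cells and 118 and 131 CPM in SCR cells (0.48, SE 0.08, edgeR adjusted p = 0.0101). Eef1g, the scaffold, had 657 and 609 CPM in KO cells and 507 and 498 CPM in SCR cells (0.33, SE 0.05, edgeR adjusted p = 0.00915). With no filter on low counts, Eef1b2 (adjusted p = 0.0516) and Eef1d (adjusted p = 0.0538) narrowly missed the threshold at the same fold changes. For all 3 eEF1B genes the lower KO library lay above the higher SCR library by more than the SCR libraries differed.

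The translocation factor moved less. Eef2 had 2800 and 2757 CPM of input RNA in KO cells and 2691 and 2604 CPM in SCR cells (0.07, SE 0.04, edgeR adjusted p = 0.310). Eif5a had 688 and 664 CPM in KO cells and 596 and 623 CPM in SCR cells and also missed the threshold (0.15, SE 0.05, edgeR adjusted p = 0.0730). DESeq2 called Eif5a higher in KO cells (adjusted p = 0.0314), which made 7 of the 10 genes. The share of all genes that DESeq2 called in input RNA is not given here. Its 7 calls are therefore not to be read against edgeR's 16.8%. Without KO input RNA replicate 2, edgeR called Eif5a as well.

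Of the release factors, Etf1 had 387 and 373 CPM in KO cells and 341 and 337 CPM in SCR cells (0.17, SE 0.05, edgeR adjusted p = 0.0491). This call sat at the threshold and was lost with RLE scaling (adjusted p = 0.0507), with library totals as the only scaling (adjusted p = 0.166), with no filter on low counts (adjusted p = 0.0893) and without KO input RNA replicate 1 (adjusted p = 0.0673). Gspt1 had 283 and 285 CPM in KO cells and 258 and 268 CPM in SCR cells (0.11, SE 0.05, edgeR adjusted p = 0.149). The groups of Gspt1 did not overlap, but the difference did not pass.

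The recycling and rescue genes differed from each other. Abce1 had 196 and 216 CPM of input RNA in KO cells and 194 and 212 CPM in SCR cells (0.02, SE 0.07, edgeR adjusted p = 0.872), and its sign turned with library totals as the only scaling (-0.05), without KO input RNA replicate 2 (-0.05) and without SCR input RNA replicate 1 (-0.05). Hbs1l had 112 and 106 CPM in KO cells and 86.7 and 89.7 CPM in SCR cells, and rose (0.30, SE 0.05, edgeR adjusted p = 0.0137). Hbs1l has annotated frames of 682 and 612 codons in the deposited list, from the same start and with other ends (chr10:21172033-21244196 and chr10:21172033-21186415, plus strand, GRCm39). The shorter kind of product is known in human cells as the SKI7-like bridge between the exosome and the Ski complex, and counts per gene add both up.

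No member passed the threshold in footprints, which report the messages under ribosomes. This count of 0 of 10 comes from edgeR's test over 16878 genes, of which 2.29% passed, 0.51% higher and 1.78% lower in KO cells. At an unadjusted p under 0.05 there were 3 members (Eef1b2, Eef1d and Abce1), and DESeq2 called the same 3 higher in KO cells. The share of all genes at an unadjusted p under 0.05 was not computed, here or for any list below. DESeq2 called more of all genes than edgeR did, so its 3 calls are not to be read against the 2.29%. The median log2 fold change of the 10 genes was 0.16, against 0.01 over all genes tested. Both KO libraries were above both SCR libraries for 9 of the 10 genes, as for 29.5% of all genes, and below them for Hbs1l, as for 28.2% of all genes. Leaving out any 1 footprint library brought the number of all genes called down to between 25 and 128, against 387, and called none of the 10.

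Eef1a1 had 1331 and 1228 CPM of footprints in KO cells and 1033 and 1148 CPM in SCR cells (0.23, SE 0.09, edgeR adjusted p = 0.217). Eef1b2 had 686 and 683 CPM in KO cells and 581 and 554 CPM in SCR cells (0.27, SE 0.07, edgeR adjusted p = 0.0995, DESeq2 adjusted p = 5.54e-05). Eef1d had 406 and 430.5 CPM in KO cells and 370.1 and 370.5 CPM in SCR cells (0.18, SE 0.06, edgeR adjusted p = 0.181, DESeq2 adjusted p = 0.0435). For each of these genes the KO libraries lay above the SCR libraries, with a smaller log2 fold change than in input RNA.

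Eef1g footprints hardly varied within a genotype, at 206 CPM in both KO libraries and 191 and 188 CPM in SCR cells (0.12, SE 0.05, edgeR adjusted p = 0.237). Eef2 had 1033 and 1014 CPM in KO cells and 985 and 975 CPM in SCR cells (0.06, SE 0.07, edgeR adjusted p = 0.628). Eif5a had 289 and 287 CPM in KO cells and 246 and 276 CPM in SCR cells (0.14, SE 0.08, edgeR adjusted p = 0.319). The SCR libraries of Eif5a were further apart than the nearest KO and SCR libraries.

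Etf1 had 142 and 153 CPM of footprints in KO cells and 134 and 139 CPM in SCR cells (0.11, SE 0.07, edgeR adjusted p = 0.357). Gspt1 had 225 and 253 CPM in KO cells and 198 and 221 CPM in SCR cells (0.19, SE 0.09, edgeR adjusted p = 0.276). For both release factors the nearest KO and SCR libraries differed by less than the libraries of 1 genotype.

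Abce1 had the largest footprint difference of the 10 genes, with 194 and 207 CPM in KO cells and 153 and 162 CPM in SCR cells (0.35, SE 0.06, edgeR adjusted p = 0.0688, DESeq2 adjusted p = 0.000608). With library totals as the only scaling edgeR called it (0.46, adjusted p = 0.0424), but the median of all genes was then 0.12. Hbs1l had 39.4 and 36.5 CPM in KO cells and 39.6 and 45.3 CPM in SCR cells (-0.16, SE 0.09, edgeR adjusted p = 0.339). The higher KO library and the lower SCR library of Hbs1l were nearly level, and this was the 1 gene of the 10 with fewer footprints in KO cells.

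**Figure D2:**
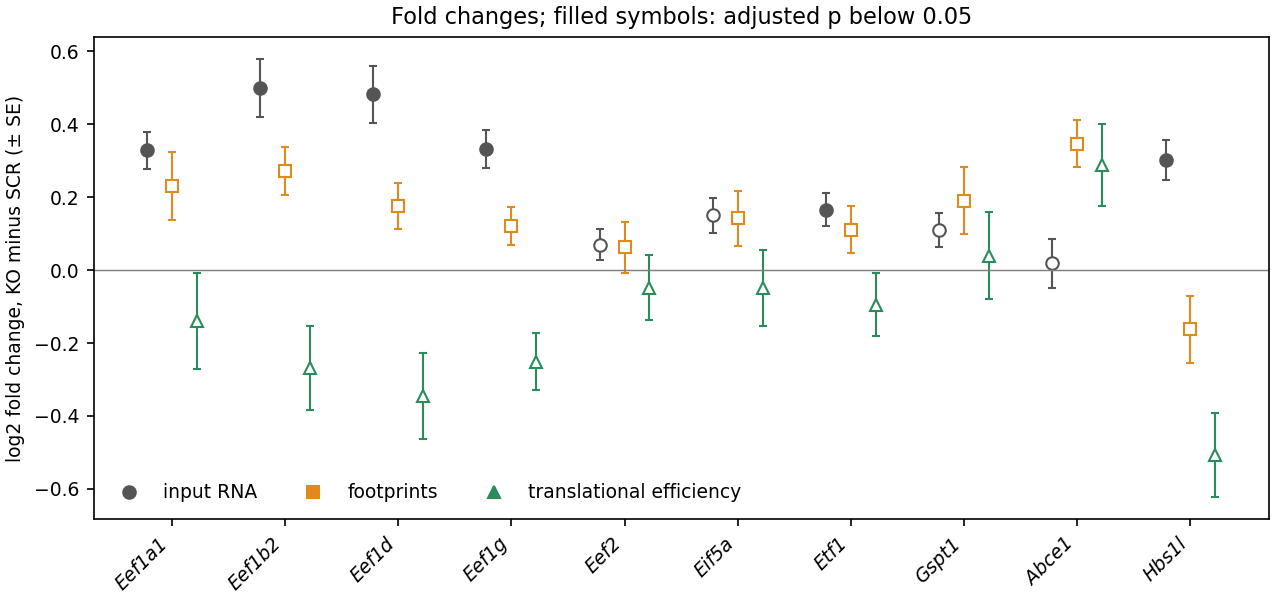
Log2 fold changes, KO minus SCR, with their SE from edgeR's fit for the 10 genes in input RNA (circles), footprints (squares) and translational efficiency (triangles); filled symbols passed an adjusted p of 0.05. The 6 filled symbols are all input RNA, Abce1 has the highest triangle (0.29) and Hbs1l the lowest (-0.51).

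Translational efficiency, the change in footprints beyond the change in input RNA, was tested in 1 model of the 8 libraries, as the term that lets the genotype effect differ between the assays. None of the 10 genes passed (edgeR, 23211 genes tested, of which 4.19% passed, 0.788% higher and 3.4% lower in KO cells), and 4 were at an unadjusted p under 0.05 (Eef1d, Eef1g, Abce1 and Hbs1l). DESeq2 called Eef1d, Eef1g and Hbs1l lower in KO cells. It also called more of all genes than edgeR did, so these calls are not to be read against the 4.19%. The median of the 10 genes was -0.12, against -0.05 over all genes tested. In the main scaling 2 of the 10 genes were above 0 (Gspt1 and Abce1). With library totals as the only scaling the median of all genes moved to 0.15, and 6 of the 10 genes were above 0, so a sign near 0 depends on the scaling and values are best read against the median.

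Hbs1l had the lowest efficiency change of the 10 genes, at -0.51 (SE 0.12, edgeR adjusted p = 0.0562). The fit missed the threshold narrowly, whereas DESeq2 called it (adjusted p = 0.00719), and edgeR called it without SCR footprint replicate 1 (-0.67, adjusted p = 0.0304) and with no filter on low counts (-0.61, adjusted p = 0.0349). It was the 1 member past 0.05 in the authors' deposited table, which gives ratios of footprints to input RNA of 0.188 in KO cells and 0.270 in SCR cells, a log2 fold change of -0.52 and an adjusted p of 0.00912. At that threshold the authors' deposited table has 10.9% of all genes, with 2.17% higher and 8.69% lower in KO cells. With library totals as the only scaling the value was -0.29 (adjusted p = 0.157), below the median of all genes of 0.15.

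The eEF1B genes came next in order. Eef1d was at -0.35 (SE 0.12, edgeR adjusted p = 0.152, DESeq2 adjusted p = 0.0360), Eef1b2 at -0.27 (SE 0.12, edgeR adjusted p = 0.248) and Eef1g at -0.25 (SE 0.08, edgeR adjusted p = 0.118, DESeq2 adjusted p = 0.0185). Abce1 was at 0.29 (SE 0.11, edgeR adjusted p = 0.208) and passed with library totals as the only scaling (0.50, adjusted p = 0.0408). The others lay between -0.14 and 0.04, with Eef1a1 at -0.14 (SE 0.13), Etf1 at -0.09 (SE 0.09), Eef2 at -0.05 (SE 0.09), Eif5a at -0.05 (SE 0.10) and Gspt1 at 0.04 (SE 0.12). Their edgeR adjusted p-values were 0.634 to 0.998.

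The share of each library taken by the 10 genes together was higher in both KO libraries of both assays. It was 1.33% and 1.28% of input RNA counts in KO cells and 1.15% and 1.14% in SCR cells. Of footprint counts it was 0.474% and 0.464% in KO cells and 0.379% and 0.390% in SCR cells. These shares carry no scaling factor. With library totals as the only scaling, the median log2 fold change of all genes was -0.07 in input RNA and 0.12 in footprints. Eef1a1 weighs most in the sums, with 384117 of 645181 counts in KO input RNA replicate 1 and 20189 of 69035 in KO footprint replicate 1.

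The genes differed far more from each other than between genotypes in how many footprints they had per input RNA. The ratio of mean footprint CPM to mean input RNA CPM, in which the coding share of the transcript still counts, was highest for Eef1b2, at 3.05 in KO cells and 3.16 in SCR cells, and for Eef1d, at 2.55 in KO cells and 2.79 in SCR cells. In SCR cells these were at percentile 92.7 and percentile 91.5 of 16990 genes. Gspt1 was at 0.893 in KO cells and 0.747 in SCR cells, and Abce1 was at 1.03 in KO cells and 0.729 in SCR cells. Hbs1l was at 0.371 in KO cells and 0.452 in SCR cells. Eif5a, Etf1, Eef1g and Eef2 lay between 0.345 and 0.453 in KO cells and between 0.348 and 0.403 in SCR cells, near the median of all genes of 0.420 in KO cells and 0.374 in SCR cells. Eef1a1 was lowest, at 0.173 in KO cells and 0.164 in SCR cells (percentile 29.1 in SCR cells). The third eEF1B subunit lay far below Eef1b2 and Eef1d in this ratio, with Eef1g at 0.345 in KO cells and 0.354 in SCR cells.

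**Figure D3:**
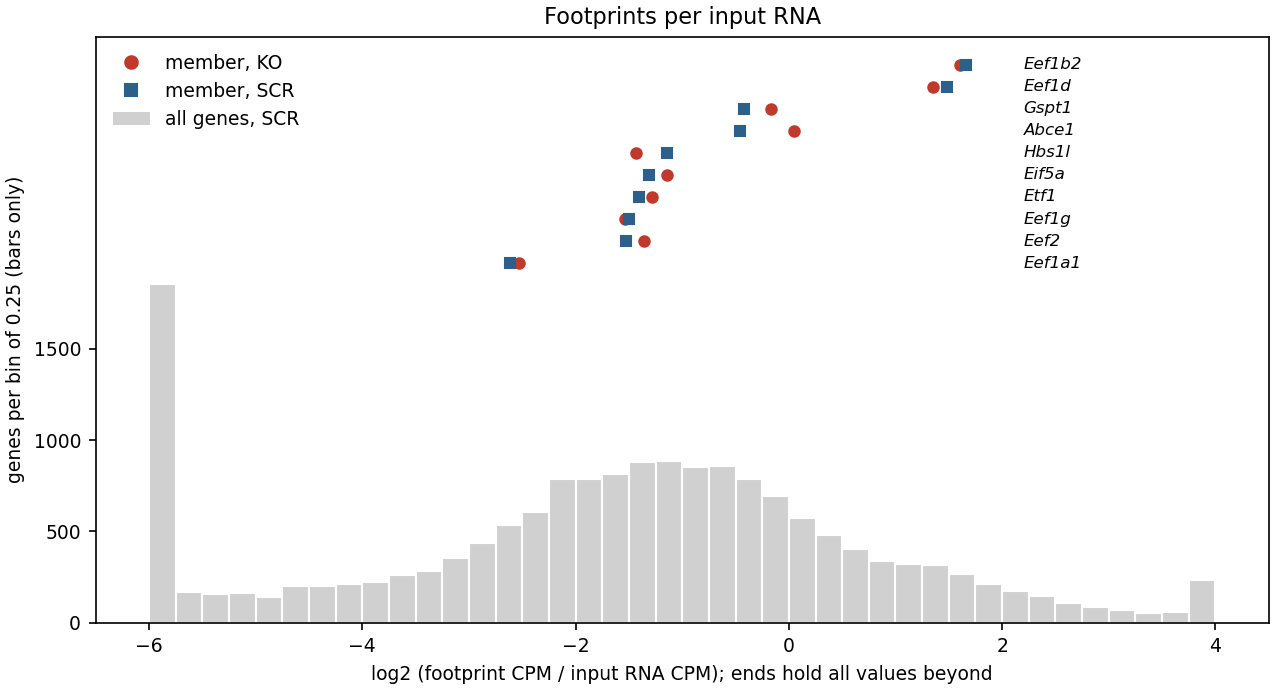
Footprint CPM over input RNA CPM on a log2 axis for the 10 genes (circles, mean of KO libraries; squares, mean of SCR libraries; each gene on a line of its own with no vertical scale) above the histogram of all genes in SCR cells (bars, genes per bin). Eef1b2 and Eef1d lie at the right of the bars and Eef1a1 at the left, Abce1 has its KO circle right of its SCR square and Hbs1l has its KO circle left of its SCR square.

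Pseudogene copies of Eef1a1 and Eef2 have rows of their own in the tables, and which gene their reads came from was not tested. Eef1a1-ps1, a copy of Eef1a1, had 438 and 397 CPM of footprints in KO cells and 312 and 358 CPM in SCR cells, but only 50.5 and 43.9 CPM of input RNA in KO cells and 32.0 and 33.3 CPM in SCR cells. The copies held 24.8% and 24.4% of the summed footprints of Eef1a1 and its copies in KO cells and 23.2% and 23.8% in SCR cells, against 0.510% to 0.612% of the summed input RNA. With the copies added, the ratio of Eef1a1 was 0.228 in KO cells and 0.213 in SCR cells. Eef2-ps2 held 8.03% and 7.91% of the summed Eef2 footprints in KO cells and 8.36% and 7.98% in SCR cells. Levels of Eef1a1 and Eef2 footprints are therefore uncertain, but adding these copies changed no call among the 10 genes. Only the rows named Eef1a1-ps1, Eef1a1-ps2 and Eef2-ps2 were used. Other copies, of these or of the other members, were not examined.

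Per kilobase of the annotated frame, the footprints ranked the genes in another order than raw CPM. Eef1b2 stood at 1014 ± 2.95 footprint CPM per kilobase in KO cells and 841 ± 27.7 in SCR cells (mean ± SD, n = 2 libraries each). Eef1a1 followed at 923 ± 52.2 in KO cells and 787 ± 58.8 in SCR cells. Eif5a had 624 ± 3.16 in KO cells and 565 ± 45.6 in SCR cells. Within SCR cells Eef1b2 and Eef1a1 lay within the spread of their libraries, since the higher Eef1a1 library (828) was above the lower Eef1b2 library (821). With its pseudogene copies added, Eef1a1 stood above Eef1b2, at 1225 ± 73.2 in KO cells and 1029 ± 82.4 in SCR cells.

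Eef1d had 440 ± 18.0 footprint CPM per kilobase in KO cells and 389 ± 0.285 in SCR cells, and Eef2 had 398 ± 5.11 in KO cells and 381 ± 2.69 in SCR cells. With its copy added Eef2 had 432 ± 5.95 in KO cells and 415 ± 4.14 in SCR cells, which put it above Eef1d in SCR cells and left it below in KO cells. Eef1g stood apart from the other eEF1B subunits, at 157 ± 0.257 in KO cells and 144 ± 1.56 in SCR cells. Gspt1 had 125 ± 10.4 in KO cells and 110 ± 8.57 in SCR cells, Etf1 had 112 ± 6.01 in KO cells and 104 ± 3.002 in SCR cells, and the libraries of these release factors overlapped in SCR cells but not in KO cells, where Gspt1 was higher. Abce1 had 112 ± 5.10 in KO cells and 87.8 ± 3.40 in SCR cells. Hbs1l was lowest, at 18.6 ± 1.01 in KO cells and 20.7 ± 1.99 in SCR cells.

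**Figure D4:**
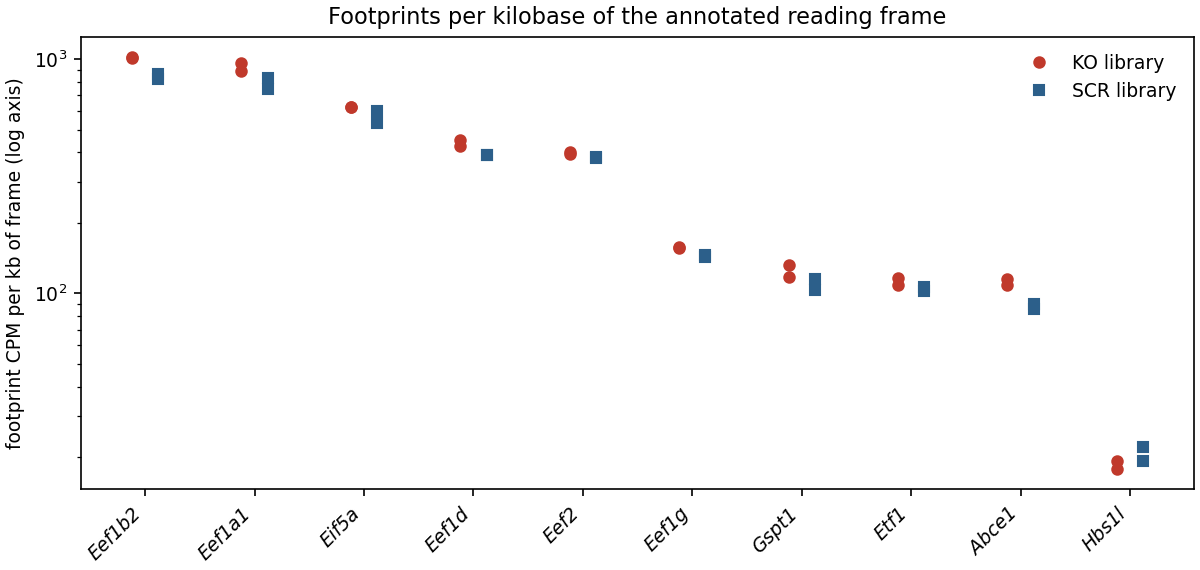
Footprint CPM per kilobase of the longest annotated reading frame (log axis) for each gene, in order of the SCR mean and with no pseudogene copies added (circles, 2 KO libraries; squares, 2 SCR libraries). Eef1b2 and Eef1a1 lead, and Hbs1l, at 18.6 in KO cells and 20.7 in SCR cells on average, lies well under Abce1, at 112 in KO cells and 87.8 in SCR cells.

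The deposited list of translated reading frames also held 18 unannotated frames on these genes, of which 9 were upstream, 5 overlapped the start of the main frame and 4 were downstream. All 10 genes had at least 1, and 9 of them had an upstream or overlapping one. The authors' deposited lists of frames with larger values in 1 genotype, 1383 larger in KO cells and 1614 larger in SCR cells, held 3 of these in the KO list and 2 in the SCR list. P-site counts in those lists are not split by library, so they carry no error here. No share of all genes or of all frames was computed beside these counts, so they are not read as more or fewer than usual.

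The overlapping upstream frame of Abce1, in the KO list, starts with CTG and has 30 codons (chr8:80435099-80438181, minus strand, GRCm39). The authors' deposited table gives it 59 P-sites in its own frame, an RPKM of 7.64 and an adjusted p of 0.00685. What these adjusted p-values test is not stated with the table. The upstream frame of Hbs1l, in the SCR list, starts with ATG and has 16 codons (chr10:21171936-21171986, plus strand, GRCm39), and ends before the main frame begins. The authors' deposited table gives it 31 P-sites in its own frame, an RPKM of 7.53 and an adjusted p of 0.0471. The frames of Abce1 and Hbs1l stand in different lists.

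Eif5a had a frame in each list, both starting with GTG. In the authors' deposited tables the frame of 42 codons in the KO list had 17 P-sites in its own frame and an RPKM of 1.57 (adjusted p = 0.0241). The frame of 18 codons in the SCR list had 13 and an RPKM of 2.81 (adjusted p = 0.0450). Etf1 had a downstream frame of 77 codons from an ATG in the KO list, with 18 P-sites and an adjusted p of 0.0350 in the authors' deposited table.

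Genes that make or modify these factors were read from lists chosen by function. Like the members, the lists were chosen with earlier results of these data known, so shares of all genes are no blind comparison. Of 19 genes that modify elongation or release factors, 8 rose in input RNA and none fell, where 9.56% of all genes rose and 7.21% fell, with a median log2 fold change of 0.34. Trmt112, which activates several methyltransferases including the one for eRF1 and METTL5 itself, rose by 0.80 (SE 0.10, edgeR adjusted p = 0.00527). Both hypusine enzymes rose, Dhps by 0.55 (SE 0.07, edgeR adjusted p = 0.00645) and Dohh by 0.58 (SE 0.11, edgeR adjusted p = 0.0178). Mettl13, which methylates eEF1A, rose by 0.39 (SE 0.07, edgeR adjusted p = 0.0141). The other 4 that rose were Dph2 and Dph3 of the diphthamide pathway, which modifies eEF2, and the eEF1A lysine methyltransferase genes Eef1akmt1 and Eef1akmt4.

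None of this list passed in footprints (18 tested, 2 at an unadjusted p under 0.05, 1 higher by DESeq2), where Dhps was at 0.52 (SE 0.12, edgeR adjusted p = 0.0920) and Dohh at -0.04 (SE 0.10, edgeR adjusted p = 0.863). At the edge of the threshold, Trmt112 was the 1 gene of the list that fell in translational efficiency (-1.16, SE 0.25, edgeR adjusted p = 0.0498), where 3.4% of all genes fell. It had 28.02 and 24.1 CPM of input RNA in KO cells and 14.9 and 15.1 CPM in SCR cells, but 9.23 and 8.67 CPM of footprints in KO cells and 9.08 and 13.2 CPM in SCR cells. Its input RNA groups were well apart, and its footprint groups overlapped.

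Of 19 genes of ribosome rescue and quality control, 2 rose and 3 fell in input RNA, where 9.56% of all genes rose and 7.21% fell, with a median of 0.01. Tcf25 of the ribosome quality control complex rose by 0.51 (SE 0.05, edgeR adjusted p = 0.00237), and Rack1, a protein of the small subunit needed to sense collisions, rose by 0.25 (SE 0.05, edgeR adjusted p = 0.0255). Gtpbp2, a rescue GTPase, fell by 0.26 on the log2 scale (SE 0.06, edgeR adjusted p = 0.0222). Ankzf1, which releases stalled peptides from tRNA, fell by 0.45 (SE 0.12, edgeR adjusted p = 0.0449). Gigyf2, a translational repressor, fell by 0.19 (SE 0.05, edgeR adjusted p = 0.0492). The calls of Ankzf1 and Gigyf2 were close to the threshold. Pelo, which encodes the partner of HBS1L, was at 0.23 in input RNA (SE 0.09, edgeR adjusted p = 0.117), at 0.07 in footprints (SE 0.07, edgeR adjusted p = 0.632) and at -0.21 in translational efficiency (SE 0.13, edgeR adjusted p = 0.436). It was named after its values were seen. None of the list passed in footprints (6 at an unadjusted p under 0.05, 2 higher by DESeq2) or in translational efficiency (3 at an unadjusted p under 0.05, 2 lower by DESeq2).

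Among 4 genes of late subunit recycling, only Denr rose in input RNA (0.28, SE 0.07, edgeR adjusted p = 0.0408), where 9.56% of all genes rose. None of the 4 passed in footprints (2 at an unadjusted p under 0.05, none by DESeq2) or in translational efficiency (1 at an unadjusted p under 0.05, none by DESeq2). Of 10 mitochondrial translation factor genes, 3 rose in input RNA and none fell, beside the same 9.56% and 7.21% of all genes, with a median of 0.19. Tufm, the mitochondrial counterpart of Eef1a1, rose by 0.35 (SE 0.05, edgeR adjusted p = 0.00816), its exchange factor Tsfm by 0.41 (SE 0.08, edgeR adjusted p = 0.0163) and the rescue factor gene Mrpl58 by 0.35 (SE 0.07, edgeR adjusted p = 0.0200). No mitochondrial factor passed in footprints (1 at an unadjusted p under 0.05, none by DESeq2). Tufm was the 1 of these 10 that fell in translational efficiency (-0.57, SE 0.07, edgeR adjusted p = 0.0205), where 3.4% of all genes fell. It had 40.0 and 40.6 CPM of footprints in KO cells and 46.1 and 45.4 CPM in SCR cells.

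Of 4 close relatives of the members, 3 were tested in input RNA and 1 rose, where 9.56% of all genes rose. Eef1a2, the muscle and nerve form of eEF1A, had 0 counts in every input RNA library and at most 0.481 CPM of footprints, here over library totals. Eefsec, the elongation factor for selenocysteine, rose in input RNA (0.21, SE 0.05, edgeR adjusted p = 0.0298). Eif5a2 was at -0.03 (SE 0.07, edgeR adjusted p = 0.809) and Gspt2 at -0.01 (SE 0.11, edgeR adjusted p = 0.981) in input RNA. None of the 3 relatives tested passed in footprints (1 at an unadjusted p under 0.05, none by DESeq2) or in translational efficiency (2 at an unadjusted p under 0.05, none by DESeq2).

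By RefSeq's spans, 7 of the 10 genes overlap other genes. These include snoRNA genes within Eef1b2 (Snora41) and Eef2 (Snord37), Anapc10 beside Abce1, Gps2 beside Eif5a, Tigd5 beside Eef1d and lncRNA genes at Hbs1l and Gspt1. The sources used here do not give whether counting used the strand, so counts of these 7 genes are uncertain where a neighbour is transcribed, and Eef1a1, Eef1g and Etf1 have no such neighbour.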

How the data were processed

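Per the labels' protocols for the footprint libraries, cells were held with cycloheximide (100 µg/ml, 8 min), lysates were matched by absorbance, and RNase digestion took 40 min at 22 C. Cycloheximide and RNase are not listed for the input RNA libraries, so these steps cannot be told apart from the assay. The deposited tables hold estimated counts per gene, written by the authors in whole numbers and not normalized. The POOL columns were read as KO because every other column carries the name SCR. The submitters' processing notes name STAR 2.7.10a, StringTie 2.1.7 and GRCm39, with no role or order. The authors' deposited table of translational efficiency gives 1 ratio for each genotype, the log2 change between them and a p-value. For frames, the authors deposited P-site counts, an RPKM and an adjusted p-value. The tools behind both are not given in the sources used here.

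Genes were fitted in R 4.3.3 with edgeR 4.0.16 (TMM, filterByExpr, quasi-likelihood F test, Benjamini-Hochberg adjustment over all genes, threshold 0.05), with unpaired libraries. The SE is the log2 fold change over the root of F. DESeq2 1.42.0, other scalings, no filter, left-out libraries and the replicate number as a term were alternatives. For single genes these were read for the members only. The other lists were counted again with DESeq2 alone, so their calls near the threshold were not checked under the other alternatives. The fits were tested on simulated data with planted changes larger than those of any member, so that test does not cover changes of the members' size. Ratios of footprints to RNA used CPM over library totals, for genes with at least 50 input RNA counts over both libraries of a genotype. Tables were joined in Python 3.11.15 (pandas 2.3.3). The members and lists were chosen with earlier results of these data known. All members and all 4 relatives were named. The plan for each other list was up to 4 genes past the threshold, otherwise up to 2. In input RNA all genes of these lists that passed were named. Blood receptor and single-cell samples were not used.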

Additional observations from a re-analysis of the deposited data

How the results depend on the processing

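No fold change of the 10 genes that passed changed sign under any alternative. Of 360 values of single genes, 334 stayed on their side of the threshold. Values near 0 that did not pass did change sign, as Abce1 in input RNA, above 0 in 7 of 10 alternatives. In input RNA, 6 members rose with all libraries, 3 with no filter on low counts (1193 genes called of all, against 3358) and 2 to 7 with 1 library left out (1031 to 4251 genes called). In footprints, no member rose in the main fit, 1 with library totals as the only scaling and 3 with DESeq2. The footprint genes called were 387, against 673 with library totals, 755 with no filter, 1381 with DESeq2 and 25 to 128 with 1 library left out. In translational efficiency, members that rose were 0, against 1 with library totals. Members that fell were 0, against 1 with no filter, 3 with DESeq2 and 0 to 1 with 1 library left out. The efficiency genes called were 973, against 1863 with DESeq2 and 0 to 1187 with 1 library left out. A C followed by at least 4 pyrimidines lay exactly at the annotated start of 0 of 7 members and within 10 bases of it in 1. In the wider window, added after the data were seen, 6 members had one. That window also counts runs away from the start. Of all promoters, 2.51%, 29.7% and 58.1% had one in these settings. The cause of the differences between settings was not tested. With the replicate number as a replicate block, 6 members rose in input RNA and 0 genes were called in footprints and 0 in translational efficiency. The labels do not pair the numbers, and libraries of the same number deviated from their group means with correlations of -0.0151 to 0.0367 across genes. Thinning footprints to the lowest total and adding the named pseudogene copies, both added after the data were seen, changed no call among the members.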
